A study of Mus musculus with 40 samples.

Results

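Nuclei of the S3 segment of the mouse proximal tubule were examined in the right kidney 24 h after surgery that took out the left kidney (UNx, for unilateral nephrectomy) or after a sham operation. They were the nuclei that the authors' deposited annotation places in its class PTS3, including those that a finer version of the annotation calls UNx PTS3, and they numbered 1671 of 16500 nuclei. The sham mice gave 502 and 211 S3 nuclei and the UNx mice 502 and 456. All animals were male C57BL/6 mice of 8 to 12 weeks. UNx mice had lost the left kidney, sham mice had the same surgery without its removal, and both kept the right kidney, of which a cross section was sampled. Nuclei were sorted by a DNA stain and read with a droplet kit, with 2 mice per group. The labels put replicate 1 of each group in batch 3 and replicate 2 in batch 4. Bulk RNA-seq of 12 other mice at 24 h, 6 sham and 6 UNx in batch 1, is set beside the nuclei where it bears on a gene.

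The proximal tubule takes back most of the filtered glucose, amino acids, phosphate and carboxylates and secretes organic anions and cations. Its convoluted part is divided into S1 and S2, and the straight S3 part runs through the outer stripe of the medulla, where oxygen is scarce and where tubules are injured first by ischaemia. Proximal tubule cells burn fatty acids in mitochondria and peroxisomes, and they are the cells that enlarge most when a single kidney takes over the work of a pair.

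The label was checked with the markers Slc7a13, a cystine and acidic amino acid transporter of the S3 brush border, Slc22a30, a relative of the organic anion transporters, and Slc5a10, a sugar transporter. Levels are CPM, the UMI (molecule) counts of a gene summed over the nuclei of a mouse and scaled to a common library total. For this comparison of segments, CPM were scaled with TMM factors over the sums of S1, S2 and S3. Slc7a13 reached 3962 and 2076 CPM in S3 nuclei of sham mice 1 and 2 and 3655 and 1690 CPM in those of UNx mice 1 and 2. In S2 nuclei it had 1591, 776, 1115 and 587 CPM in the same order, and in S1 nuclei 32.8, 228, 25.0 and 208 CPM. Among 23 classes with at least 10 nuclei in every mouse, S3 held the highest Slc7a13 level in 4 of 4 mice. The other markers were not highest there. Slc22a30 was highest in S2 nuclei and second in S3 nuclei in 4 of 4 mice, and Slc5a10 was highest in S3 nuclei in sham mouse 1 and in S2 nuclei in the other 3. Slc22a30 and Slc5a10 therefore did not set S3 apart from S2 in these data. The defining markers of S1 were lower in S3 than in S1 nuclei in each mouse. In batch 3, Slc5a2, Slc5a12 and Slc6a19 had 5.04 to 11.1 CPM in S3 nuclei, against 331 to 6753 CPM in S1 nuclei. In batch 4 the same genes had 45.4 to 262 CPM in S3 nuclei, against 258 to 2386 CPM in S1 and 64.3 to 200 CPM in S2 nuclei. In that batch they did not clearly set S3 apart from S2.

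**Figure D1:**
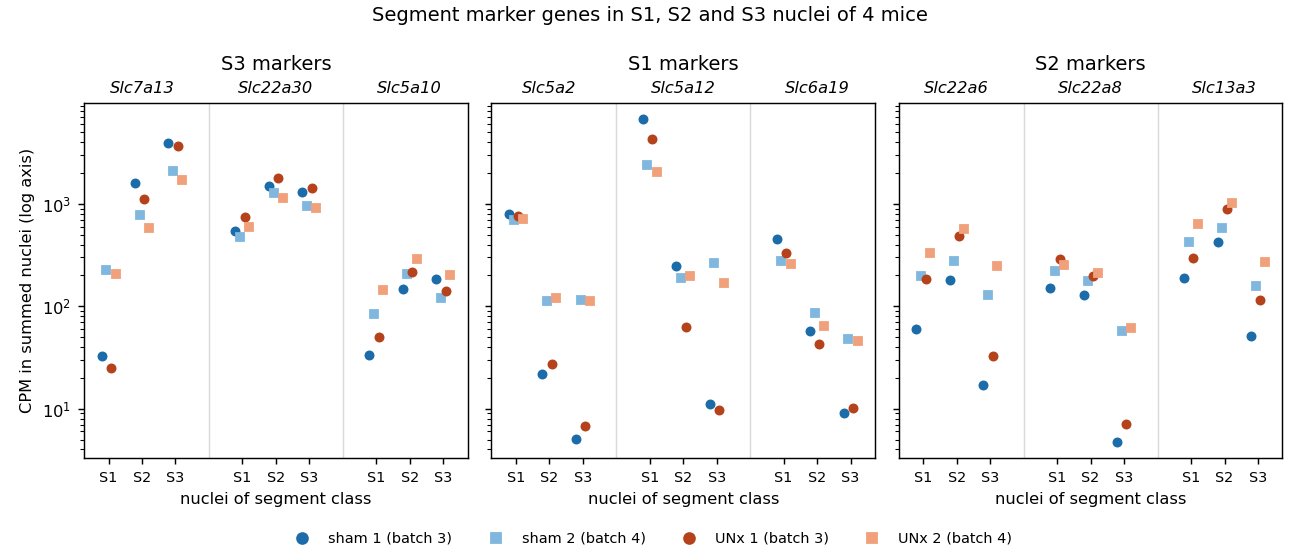
Levels of 3 markers each of S3, S1 and S2 in the summed nuclei of each segment, in CPM on a log axis, with 1 point per mouse (circles batch 3, squares batch 4, blue sham, orange UNx). Slc7a13 is highest in S3 in 4 of 4 mice, and S1 and S2 markers sit higher in S3 nuclei of batch 4 than of batch 3.

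Genes that stood highest in S3 were listed as a description, without a test, since the classes had been made from the same genes. Of 3700 genes with a mean of at least 50 CPM in S3 nuclei, 681 were higher in S3 in all 8 ratios to S1 and S2 (2 segments, 4 mice), and 67 of these by at least 1 on the log2 scale each time. Higd1c led this list, with 306, 182, 266 and 184 CPM in S3 nuclei of sham mice 1 and 2 and UNx mice 1 and 2, and with means of 6.66 CPM in S1 and 7.91 CPM in S2. Cyp7b1, an oxysterol hydroxylase, had 3801, 614, 2628 and 1581 CPM, with means of 50.05 CPM in S1 and 56.4 CPM in S2. Its sham mice differed widely, and its lowest log2 ratio to another segment was 3.24. The next 8 were Mettl7a2, Runx1t1, the heparan sulfate sulfotransferase Hs6st2, the organic anion transporter Slco4c1, the phosphatase Ppm1e, the cytoskeletal regulator Wasf3, the flippase Atp8b4 and the branched-chain aminotransferase Bcat1, with smallest log2 ratios of 2.37 to 3.07. Of these 10 genes only Runx1t1 passed the threshold between UNx and sham, and only in the fit with batch described below, with an adjusted p of 0.0340. It had 115, 24.1, 175 and 50.3 CPM, so each UNx mouse lay above the sham mouse of its batch while the groups overlapped.

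The S3 sums held 6751566 and 3977202 UMIs in sham mice and 7625137 and 6909403 in UNx mice, with 11105 to 14944 UMIs in the median nucleus. Libraries of batch 4 stood apart. Mitochondrially encoded genes took 3.91% and 5.70% of the S3 counts there and 0.348% and 0.526% in batch 3, sham before UNx. Summed markers of the thick ascending limb had 2300 and 3140 CPM in S3 sums of batch 4 against 109 and 115 CPM in batch 3, and those of red blood cells 593 and 630 against 114 and 100.3. Summed markers of the distal convoluted tubule, connecting tubule, principal, intercalated, podocyte, endothelial and mural cells were higher in batch 4 too, from 1.69 to 31.3 CPM in batch 3 to 25.3 to 725 CPM in batch 4. Those of immune cells had 140 to 182 CPM and those of the thin limb 218 to 421 CPM over the 4 mice, but their members differed. Csf1r and Slc39a8, large parts of these sums, were lower in batch 4, and Skap1 and Aqp1 overlapped between batches. The other members were higher in batch 4. Cd74 had 4.16 and 3.90 CPM in batch 3 against 30.9 and 24.2 CPM in batch 4, and Slc14a2 had 6.94 and 6.24 against 202 and 182 CPM, sham before UNx. Of 64 marker genes checked only Cyp11b1, an adrenal enzyme, was at 0 in all 4 mice. No barcode was shared between libraries within S3, and 18 were over all nuclei.

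S3 nuclei made up 9.40% of all nuclei of sham mouse 1 (exact Clopper-Pearson interval at 95%, 8.63 to 10.2%), 7.99% of sham mouse 2 (6.98 to 9.09%), 9.75% of UNx mouse 1 (8.95 to 10.6%) and 13.5% of UNx mouse 2 (12.4 to 14.7%). These intervals cover counting error only. UNx mice were thus above sham mice, by 2.95 percentage points on average, but UNx mouse 1 lay within the interval of sham mouse 1. As a share of proximal tubule nuclei, S3 had 23.7% and 19.7% in sham and 25.5% and 35.3% in UNx mice, while the whole proximal tubule kept 38.3 to 40.6% of nuclei in each mouse. The smallest two-sided exact permutation p with 2 against 2 is 0.333, so shares were not tested. Without UNx mouse 2 the difference in the share of all nuclei was 1.05 points.

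The finer annotation followed the operation almost completely. It called 0.797% of S3 nuclei UNx PTS3 in sham mouse 1 (4 of 502) and 3.32% in sham mouse 2 (7 of 211). In the UNx mice it did so for 100% (502 of 502) and 99.3% (453 of 456). The class was made from the expression of these nuclei and is named for the operation, so its size is a description and not a finding. For S1 the same shares were 1.46%, 2.97%, 98.2% and 85.8%.

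For the test of UNx against sham, counts of S3 nuclei were summed per mouse and tested with edgeR's quasi-likelihood test. Of 14816 genes tested, 0 (0%) passed a Benjamini-Hochberg adjusted p of 0.05 without a term for batch, and 250 (1.69%) had an unadjusted p under 0.05. On the same sums limma voom called 0 genes and the DESeq2 Wald test 25, 24 of them lower in UNx. With the replicate number, which the labels tie to the batch, as a block, edgeR called 353 genes (2.38%), 120 higher (0.810%) and 233 lower (1.57%) in UNx. Both mice of one group lay beyond both of the other for 3125 genes (21.1%), 1493 higher (10.1%) and 1632 lower (11.0%). With the block 1939 genes (13.1%) had an unadjusted p under 0.05. The fit without the block was planned as the main test and the block as an alternative, which leaves fewer residual degrees of freedom. All adjusted p-values below come from the blocked edgeR fit with Benjamini-Hochberg adjustment unless another test is named, and "called" refers to that fit. They are thus calls of the alternative, and the planned main test called 0 genes. Log2 fold changes of UNx over sham in nuclei and their SEs are those of the fit without the block. For S3 nuclei, such an SE and the adjusted p beside it thus come from different fits.

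Genes called lower had larger fold changes than genes called higher. The median size of the blocked log2 fold change was 1.19 for the lower and 0.975 for the higher genes, 44 lower genes and 3 higher genes had a size of at least 2, and 162 of 233 and 94 of 120 had groups that did not overlap. The 3 higher genes past a size of 2, singled out after their values were seen, were Aldh1a7, an aldehyde dehydrogenase with the close paralog Aldh1a1, Adcy8, an adenylate cyclase, and Mpped1. Aldh1a7 had 0.617 and 2.67 CPM in sham and 6.89 and 11.7 CPM in UNx mice. Adcy8 had 2.16 and 1.94 CPM against 14.6 and 6.89 CPM, and Mpped1 24.5 and 11.9 CPM against 122 and 39.0 CPM. The groups did not overlap in any of the 3, and the UNx mice differed from each other in each.

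**Figure D2:**
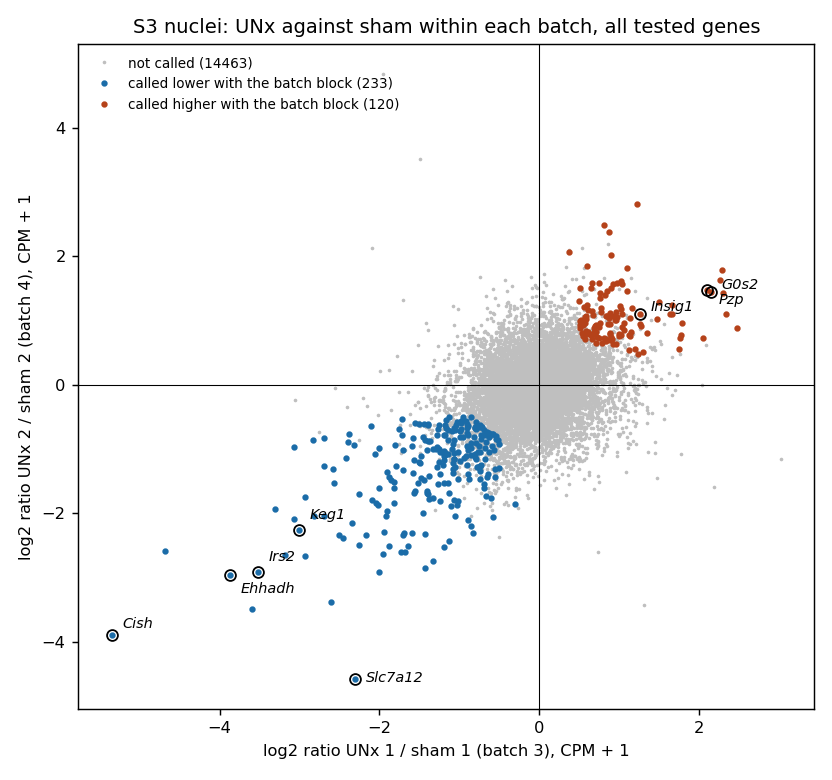
Log2 ratio of UNx to sham in S3 nuclei within batch 3 (horizontal) and within batch 4 (vertical) for each of 14816 tested genes, from CPM with 1 added. Genes called lower (blue, 233) include Cish, Ehhadh and Irs2, and genes called higher (orange, 120) include G0s2. Without 1 added, the ratios were −6.40 and −4.25 for Cish, −3.89 and −2.97 for Ehhadh and −3.59 and −2.97 for Irs2. Those of G0s2 were 2.19 and 1.47, and the plotted points are less extreme than these values.

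Growth signalling held the largest difference of a named gene. Cish (ENSMUSG00000032578, chromosome 9, 107296026 to 107302784 in GRCm38, protein coding), a feedback inhibitor of growth hormone and cytokine receptors, had 76.8 and 64.2 CPM in S3 nuclei of sham mice and 0.911 and 3.37 CPM in those of UNx mice. The groups were far apart, at −5.04 on the log2 scale (SE 0.705, adjusted p 5.16e-05). Socs2 (ENSMUSG00000020027, chromosome 10, 95385362 to 95417180), of the same inhibitor family, had 84.4 and 72.4 CPM in sham and 14.6 and 13.1 CPM in UNx mice. Its log2 fold change was −2.50 (SE 0.229, adjusted p 4.92e-05), and the within-batch log2 ratios of −2.53 and −2.47 were nearly alike. Irs2 (ENSMUSG00000038894, chromosome 8, 10984681 to 11008458), the adaptor of the insulin and IGF-1 receptors, had 212 and 159 CPM in sham and 17.6 and 20.4 CPM in UNx mice, at −3.29 on the log2 scale (SE 0.262, adjusted p 3.78e-05).

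The receptors upstream of these genes were not called. Ghr, the growth hormone receptor, had 17095 and 12800 CPM in sham and 20369 and 10034 CPM in UNx mice, so the groups overlapped. Log2 fold changes were 0.02 for Ghr, −0.09 for its kinase Jak2, −0.08 for the insulin receptor Insr, −0.17 for Igf1r and 0.22 for the transcription factor Stat5b, and none was called. Stat5a, the close relative of Stat5b, was called higher, with 12.6 and 23.6 CPM in sham and 28.9 and 40.9 CPM in UNx mice (log2 fold change 0.95, SE 0.423, adjusted p 0.0235). In all, 29 of the 33 genes of the growth signalling list were tested, 1 was called higher and 3 lower, and the median log2 fold change was 0.02, beside −0.01 over all tested genes. Socs3, Areg, Ereg and Cdkn1a had too few counts to be tested.

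Whole kidney gave other values for the same genes. In bulk RNA-seq of the 12 other mice, edgeR called 3852 of 14104 genes (27.3%). Cish ranged from 6.98 to 35.3 CPM with a median of 18.9 in 6 sham libraries and from 28.1 to 44.5 CPM with a median of 37.1 in 6 UNx libraries, with a log2 fold change of 0.84, SE 0.274 (edgeR adjusted p 0.0325). The direction was thus opposite to that in S3 nuclei, where both UNx mice were below both sham mice. Irs2 had a bulk log2 fold change of 0.50 (adjusted p 0.0667) and Socs2 one of 0.11 (adjusted p 0.860), neither called. Bulk libraries hold all cell types and cytoplasmic RNA, come from other mice and another batch, and were counted on another genome build, and in them fewer cells of a type and less RNA per cell cannot be told apart. The difference between nuclei and bulk was not tested.

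Transporters of the S3 brush border and basolateral side differed gene by gene. Of 18 further genes fixed as S3 genes, all tested, 1 was called higher and 3 lower, and the median log2 fold change was 0.08. Slc22a19 (ENSMUSG00000024757, chromosome 19, 7673061 to 7711310), an organic anion transporter, had 900 and 565 CPM in sham and 158 and 112 CPM in UNx mice. Its groups did not overlap, at −2.44 on the log2 scale (SE 0.361, adjusted p 4.92e-05). Slc7a12 (ENSMUSG00000039710, chromosome 3, 14480697 to 14505830), an amino acid transporter, had 97.2 and 270 CPM against 18.9 and 10.4 CPM, which is −3.64 on the log2 scale (SE 0.674, adjusted p 0.00167). The sham mice differed widely in it, and the log2 ratio was −2.36 in batch 3 and −4.70 in batch 4. Acy3, an aminoacylase that acts on mercapturic acids, was called higher, with 191 and 295 CPM in sham and 363 and 460 CPM in UNx mice (log2 fold change 0.76, adjusted p 0.0252). Rnf24 was called lower although its groups overlapped.

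The 3 class markers themselves were not called. Slc7a13 had 4004 and 2140 CPM in sham and 3636 and 1730 CPM in UNx mice on the scale of the S3 sums alone, which is −0.20 on the log2 scale (SE 0.546, adjusted p 0.640). Levels were higher in batch 3 than in batch 4, and the UNx mouse lay below the sham mouse of its batch, with log2 ratios of −0.14 and −0.31. Slc22a30 had a log2 fold change of 0.02 and Slc5a10 one of 0.14, with adjusted p-values of 0.997 and 0.892. Slc22a19, Slc22a30 and their neighbours on chromosome 19 are near copies of each other, so counts of single members are uncertain where reads were shared. Slc22a26, chosen after its values were seen because it belongs to that cluster, had 139 and 55.4 CPM in sham and 4.42 and 8.36 CPM in UNx mice.

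In the organic ion transport list, 29 of 29 genes were tested, 3 were called higher and 1 lower, and the median log2 fold change was 0.10. Slc22a22, a prostaglandin-specific anion transporter, had 55.2 and 66.6 CPM in sham and 122 and 97.2 CPM in UNx mice (adjusted p 0.0293), and the steroid and anion carrier Slco1a1 had 56.0 and 31.1 CPM against 88.3 and 90.5 CPM (adjusted p 0.0215). The organic cation transporter Slc22a2 had 231 and 169 CPM against 311 and 387 CPM and did not pass (adjusted p 0.0576). Of 22 amino acid transporters tested out of 23, 0 were called higher and 2 lower in edgeR, Slc7a12 and Slc7a7, the basolateral carrier of cationic amino acids with 130 and 186 CPM against 34.7 and 68.1 CPM (log2 fold change −1.62, adjusted p 0.000576). The glutamate transporter Slc1a1 had 853 and 629 CPM against 522 and 475 CPM and was not called (adjusted p 0.113).

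Of 30 sugar, phosphate and carboxylate transporters, 2 were called higher and 1 lower, with a median log2 fold change of 0.22. The sulfate transporter Slc13a1 had 559 and 625 CPM in sham and 159 and 328 CPM in UNx mice (log2 fold change −1.28, adjusted p 0.00664). Papss1 (ENSMUSG00000028032, chromosome 3, 131564768 to 131643671), which makes the activated sulfate used by sulfotransferases, differed the other way, with 74.3 and 58.6 CPM against 152 and 139 CPM (log2 fold change 1.13, SE 0.220, adjusted p 0.00321). The citrate and succinate transporter Slc13a2 was called higher, with 124 and 91.4 CPM against 178 and 182 CPM (log2 fold change 0.74, adjusted p 0.0414).

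Genes of S1 and S2 in these S3 sums need the batch beside them. Of 15 such genes, 3 were called higher and 2 lower. The higher ones were Slc22a6, Slc13a3 and Cyp4b1, and in each the groups overlapped. Cyp4b1, a fatty acid and xenobiotic hydroxylase, had 56.1 and 377 CPM in sham mice 1 and 2 and 145 and 660 CPM in UNx mice 1 and 2, which gave log2 ratios of 1.37 in batch 3 and 0.81 in batch 4. The 3 S2 markers summed to 73.6 and 353 CPM in S3 nuclei of sham and to 155 and 593 CPM in those of UNx mice, so S2 marker RNA moved with the operation and with the batch in these sums. The 3 S1 markers summed to 25.4 and 439 CPM against 26.5 and 331 CPM. Their part in the S3 results was not tested.

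Genes shared by the whole proximal tubule included some of the largest levels that were lower in UNx. Of 25 genes in that list 1 was called higher and 4 lower, with a median log2 fold change of −0.02. Keg1 (ENSMUSG00000024694, chromosome 19, 12695786 to 12719902), a kidney-enriched relative of the glycine N-acyltransferases, had 8611 and 4942 CPM in sham and 1071 and 1035 CPM in UNx mice. The UNx mice were close to each other and far below the sham mice, at −2.69 on the log2 scale (SE 0.415, adjusted p 0.000158). In bulk its log2 fold change was 0.36 (edgeR adjusted p 0.0231), again in the opposite direction.

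The endocytic adaptor Dab2 was also called lower, with 706 and 1461 CPM against 499.5 and 598 CPM (adjusted p 0.0436). The endocytic receptors it serves, Lrp2 and Cubn, had log2 fold changes of −0.59 and −0.41 and were not called. The brush border protease Mep1b was called higher, with 395 and 184 CPM in sham and 702 and 489 CPM in UNx mice (log2 fold change 1.04, adjusted p 0.00843), as was aminopeptidase N, Anpep, with 26.4 and 28.9 CPM against 54.6 and 50.01 CPM (log2 fold change 0.92, SE 0.212, adjusted p 0.0165). Hnf4a, the main transcription factor of proximal tubule identity, had a log2 fold change of 0.02.

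Promoters of the named genes were searched for the spaced palindrome TTCNNNGAA, the sequence form that STAT factors, effectors of growth hormone signalling, are known to bind, because Cish is a textbook target of that pathway. Socs2 has no window in the table used here and was not searched. The motif reads the same on both strands and overlaps no other motif searched. In the RefSeq windows of 300 bases on GRCm38.p6 (250 before to 50 after the gene start), 8.30% of 32851 windows held it and 0.457% held 2 or more. Of 28 named genes called lower, 19 had a window, 7 held the motif and 3 held 2 copies. Cish, for which the motif was chosen, is among the 7 and among the 3. Of 26 named genes called higher, 21 had a window, 2 held the motif and 0 held 2 copies. Counted by gene, 25 of 168 called lower that had a window (14.9%) held it, 6 of 93 called higher (6.45%) and 910 of 11022 tested (8.26%). A gene can have several windows and was counted if any held the motif, so these shares are not on the scale of the share of windows. The 3 genes with 2 copies were Cish, Slc22a19 and Keg1, and their sequences are shown from 250 bases before to 20 bases from the RefSeq gene start on, 5′ to 3′, with the motif in capitals. The windows are chr9:107296409-107296678 on the plus strand, chr19:7711291-7711560 on the minus strand and chr19:12695540-12695809 on the plus strand.
Cish: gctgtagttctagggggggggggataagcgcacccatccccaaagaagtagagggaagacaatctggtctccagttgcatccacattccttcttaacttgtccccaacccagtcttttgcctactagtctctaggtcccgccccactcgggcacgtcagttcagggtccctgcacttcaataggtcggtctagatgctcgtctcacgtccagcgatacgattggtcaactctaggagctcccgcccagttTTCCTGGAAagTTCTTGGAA
Slc22a19: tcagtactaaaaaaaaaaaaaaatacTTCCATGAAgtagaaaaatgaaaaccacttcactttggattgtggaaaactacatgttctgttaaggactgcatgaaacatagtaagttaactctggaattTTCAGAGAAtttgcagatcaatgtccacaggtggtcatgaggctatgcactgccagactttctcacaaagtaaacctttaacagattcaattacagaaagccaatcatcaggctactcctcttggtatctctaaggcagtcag
Keg1: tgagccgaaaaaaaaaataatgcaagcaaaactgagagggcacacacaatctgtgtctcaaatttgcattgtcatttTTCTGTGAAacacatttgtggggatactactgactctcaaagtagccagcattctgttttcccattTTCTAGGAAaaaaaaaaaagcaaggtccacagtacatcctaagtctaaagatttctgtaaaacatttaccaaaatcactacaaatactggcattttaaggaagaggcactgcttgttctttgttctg
In Cish the motif copies start 0 and 11 bases from the RefSeq gene start, which lies inside the gene span given above. In Slc22a19 they start at −224 and −123 and in Keg1 at −173 and −107. A match is a description of letters and was not tested as a site.

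The list of peroxisomal oxidation and PPARA targets held 1 called gene, and a further peroxisomal gene outside it was called as well. Ehhadh (ENSMUSG00000022853, chromosome 16, 21761287 to 21787807), the bifunctional enzyme of peroxisomal beta-oxidation, had 854 and 656 CPM in S3 nuclei of sham mice and 57.5 and 83.6 CPM in those of UNx mice. Its log2 fold change was −3.42 (SE 0.322, adjusted p 4.92e-05), with within-batch log2 ratios of −3.89 and −2.97. No other gene among the 24 tested of 25 in the list was called, and 18 of the 24 had log2 fold changes above 0. The nuclear receptor Ppara had a log2 fold change of 0.14 and catalase (Cat) 0.54. In bulk Ehhadh had 511 to 740 CPM in sham and 604 to 885 CPM in UNx libraries and was not called (log2 fold change 0.19, adjusted p 0.197), while 11 of 23 list members were called higher there. Hao2 (ENSMUSG00000027870), a peroxisomal hydroxy acid oxidase outside the list, was lower in S3 nuclei, with 60.8 and 65.1 CPM against 13.5 and 18.2 CPM (log2 fold change −1.99, SE 0.260, adjusted p 0.000269), and it was lower in bulk too (log2 fold change −0.52, adjusted p 0.00345).

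Among 22 genes of mitochondrial fatty acid oxidation, 0 were called in S3 nuclei in edgeR with the block, where 1 higher and 4 lower genes had an unadjusted p under 0.05, and 0 had one without it. In bulk 12 were called higher and 1 lower. Acadm, a medium-chain acyl-CoA dehydrogenase, had 699 and 414 CPM in sham and 309 and 336 CPM in UNx mice, a log2 fold change of −0.79 that did not pass (adjusted p 0.104). None of 14 fatty acid synthesis genes and none of 24 genes of gluconeogenesis, glycolysis and ammonia handling was called in edgeR with the block, where 3 and 5 had an unadjusted p under 0.05, and 0 and 0 had one without it. With the block 2.38% of all tested genes were called, so few or no calls are what that share gives in these 3 lists. Fasn, fatty acid synthase, had 6.17, 10.5 and 8.33 CPM in sham mice 1 and 2 and UNx mouse 1 and 47.8 CPM in UNx mouse 2 alone. The adipocyte markers summed to 10.9 CPM in the S3 nuclei of that mouse and to 0.390 to 2.16 CPM in the others, and their part in the value was not tested.

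G0s2 (ENSMUSG00000009633, chromosome 1, 193272161 to 193273217), an inhibitor of the lipase that opens fat droplets, was among the named genes that were higher in UNx, with 27.6 and 26.5 CPM in sham and 126 and 73.5 CPM in UNx mice. Its log2 fold change was 1.88 (SE 0.340, adjusted p 0.000732). Lpin2, a phosphatidate phosphatase of glycerolipid synthesis, had 207 and 181 CPM against 347 and 339 CPM (log2 fold change 0.82, SE 0.190, adjusted p 0.0170), and Sgpp1, which removes phosphate from sphingosine-1-phosphate, 47.0 and 46.4 CPM against 81.0 and 108 CPM (log2 fold change 1.02, SE 0.236, adjusted p 0.00953). Gpcpd1, which cleaves glycerophosphocholine, was lower, with 273 and 207 CPM against 77.1 and 67.6 CPM (log2 fold change −1.73, SE 0.239, adjusted p 0.000273). Lpin2 and Sgpp1 were also called higher in bulk, with log2 fold changes of 0.28 each.

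In the cholesterol synthesis list, 25 of 25 genes were tested in S3 nuclei, 2 were called higher and 1 lower, and the median log2 fold change was 0.24. In bulk 20 of the 25 were called higher and the median was 0.50. Insig1, which holds back the activation of sterol synthesis genes, had 6.63 and 7.53 CPM against 17.3 and 17.3 CPM (log2 fold change 1.29, SE 0.318, adjusted p 0.0224). Mylip (ENSMUSG00000038175, chromosome 13, 45389742 to 45412022), a ubiquitin ligase of lipoprotein uptake, is not in the cholesterol synthesis list. It was lower, with 149 and 175 CPM against 23.7 and 15.8 CPM (log2 fold change −3.03, SE 0.301, adjusted p 4.92e-05). In Mylip the UNx mice were far below the sham mice, and in bulk it was lower too, at −0.74 (adjusted p 0.00300).

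Cofactor and redox genes gave further large differences. Alas1, the rate-limiting enzyme of haem synthesis, had 204 and 231 CPM in sham and 49.6 and 62.2 CPM in UNx mice (log2 fold change −1.96, SE 0.225, adjusted p 0.000122). Nmrk1, which phosphorylates nicotinamide riboside for NAD synthesis, had 569 and 419 CPM against 112 and 93.9 CPM (log2 fold change −2.26, SE 0.262, adjusted p 5.16e-05). Gclc, the catalytic subunit of the rate-limiting enzyme of glutathione synthesis, had 4772 and 2383 CPM against 803 and 826 CPM (log2 fold change −2.14, SE 0.439, adjusted p 0.00143). In each of these 3 genes the UNx mice lay below the sham mice, and in bulk none of the 3 was called. Of 26 tested genes in the NRF2 and glutathione list 1 was called lower, Gclc, and 1 higher, the thioredoxin reductase Txnrd1, with 83.1 and 87.7 CPM against 122 and 149 CPM (log2 fold change 0.66, adjusted p 0.0471).

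The other named genes that were lower in UNx were Nr1h4, B4galt1 and Zfp810. Nr1h4, the bile acid receptor FXR, had 535 and 476 CPM in sham and 180 and 147 CPM in UNx mice (log2 fold change −1.63, SE 0.219, adjusted p 0.000370). B4galt1, a Golgi galactosyltransferase, had 158 and 225 CPM against 40.2 and 35.3 CPM (log2 fold change −2.34, SE 0.270, adjusted p 0.000158), and the zinc finger gene Zfp810 had 285 and 230 CPM against 70.2 and 75.2 CPM (log2 fold change −1.82, SE 0.214, adjusted p 0.000293). The groups were well separated in each. Further genes that were higher in UNx were Pzp, a broad protease inhibitor, at 19.3 and 15.1 against 86.2 and 43.9 CPM (log2 fold change 1.92, SE 0.425), Rbsn, an endosomal Rab effector, at 57.1 and 32.6 against 123 and 117 CPM (1.42, SE 0.338), and Fbxo40, an F-box protein, at 19.9 and 16.5 against 64.3 and 36.7 CPM (1.47, SE 0.369). Smaller differences were those of Mfap3l (log2 fold change 1.13), Galnt1, which starts mucin-type O-glycans (0.95), Entpd4b (0.94) and the RNA-binding Pcbp3 (0.83). Adjusted p-values of these 7 genes were 0.000732 to 0.0166. Entpd4b is a near copy of Entpd4, so its counts are uncertain.

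**Figure D3:**
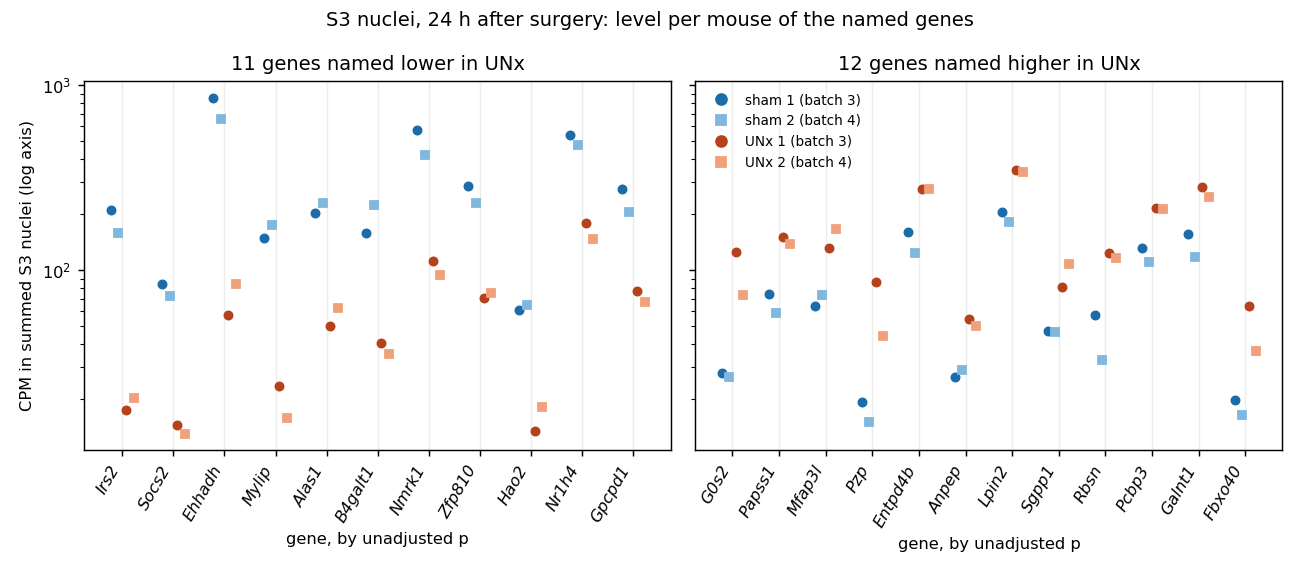
CPM (log axis) of 11 genes lower and 12 genes higher in UNx that were named for the lowest p, in the summed S3 nuclei of each mouse (circles batch 3, squares batch 4, blue sham, orange UNx). For all 23 genes both UNx mice lie on the same side of both sham mice, which the naming rule required.

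No gene of the cell cycle lists was called in S3 nuclei, beside 2.38% of all tested genes. In lists of this size that share gives few or no calls, so their absence does not set the lists apart. Of 29 DNA replication genes, 23 were tested, 13 had log2 fold changes above 0, and 0 were called in edgeR with the block, with 1 at an unadjusted p under 0.05 with and without it. That gene was Mcm6, a subunit of the replicative helicase, with 18.8 and 15.6 CPM in sham and 28.1 and 28.7 CPM in UNx mice (log2 fold change 0.72, adjusted p 0.0942). In bulk 15 of 22 were called higher. Of 24 mitosis genes 16 had too few counts in S3 nuclei to be tested, among them Mki67, Top2a, Ccnb1 and Cdk1, and 0 of the other 8 were called in edgeR with the block, where 2 had an unadjusted p under 0.05, and 0 had one without it. Cenpe, a kinesin of the kinetochore, had 8.64 and 10.9 CPM in sham and 5.20 and 2.93 CPM in UNx mice, with groups that did not overlap (log2 fold change −1.26, adjusted p 0.124). Kif23, a kinesin of cytokinesis, had 1.39 and 4.62 CPM against 2.60 and 13.9 CPM, with overlapping groups (log2 fold change 1.48, adjusted p 0.123).

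Few stress genes and no injury or immediate early genes were called, beside 2.38% of all tested genes, a share that gives few or no calls in such short lists. Of 17 tested genes of tubular injury and repair and 12 immediate early genes, 0 and 0 were called in edgeR with the block, where 4 and 1 had an unadjusted p under 0.05, and 0 and 0 had one without it. Lcn2, Krt20, Sox9, Ccl2 and Atf3 were among 8 injury genes with too few counts to be tested, and Fos, Fosb and Egr1 among the early genes. Of 23 tested genes of the unfolded protein and ATF4 response, Xbp1, a transcription factor of that response, was called lower, with 61.8 and 36.0 CPM against 23.0 and 23.3 CPM (log2 fold change −1.08, adjusted p 0.0260). In bulk 11 genes of that list were called higher, Xbp1 among them (log2 fold change 0.37, adjusted p 0.0238). The hypoxia list had 2 genes called higher, Egln3 and Pfkfb4, and 1 lower of 14 tested. Egln3, an oxygen-sensing hydroxylase, had 17.9 and 13.6 CPM in sham and 35.6 and 29.3 CPM in UNx mice (adjusted p 0.0163), whereas Ndrg1 had 318 and 319 CPM against 52.6 and 128 CPM (log2 fold change −1.82, adjusted p 0.00328).

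Of 15 glucocorticoid response genes, 1 was called higher and 2 lower. Fkbp5, a chaperone of the receptor, had 67.2 and 113 CPM in sham and 38.5 and 50.3 CPM in UNx mice (log2 fold change −1.02, adjusted p 0.00870), and the transcription factor Cebpd had 10.8 and 13.6 CPM against 2.34 and 3.08 CPM (log2 fold change −2.16, adjusted p 0.00605). Ddit4, an inhibitor of mTOR, had 3.86 and 5.83 CPM against 15.6 and 10.7 CPM (log2 fold change 1.45, adjusted p 0.0479). Members of 1 list thus differed in both directions. Of 14 androgen-responsive kidney genes, 3 were called higher (Gusb, Slco1a1 and Cyp4b1) and 1 lower, with a median log2 fold change of 0.41. Gusb, the lysosomal beta-glucuronidase, had 11.0 and 8.99 CPM against 27.7 and 18.3 CPM (adjusted p 0.0192). None of 19 circadian clock genes was called in edgeR with the block, where 3 higher and 3 lower genes had an unadjusted p under 0.05, and 0 had one without it. The share called over all tested genes was 2.38%.

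The 13 mitochondrially encoded genes all had log2 fold changes above 0, with a median of 0.72, and mt-Nd1, mt-Nd3 and mt-Nd5 were called higher. The share of counts they took in S3 nuclei was higher in the UNx than in the sham mouse of each batch and higher in both mice of batch 4 than in both of batch 3. mt-Nd3 had 25.3 and 252 CPM in sham mice 1 and 2 and 48.8 and 534 CPM in UNx mice 1 and 2. The batch separated these mice far more than the operation did. mt-Nd3 was also called higher in S1 and S2 nuclei with the block, with adjusted p-values of 0.0137 and 0.00512. Nuclear preparations hold mitochondrial RNA only as a residue, and these genes have near copies in the nuclear genome whose reads may be counted with theirs. Summed thick ascending limb and red cell markers moved with the batch in the same way, as given above, and their part in this result was not tested.

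**Figure D4:**
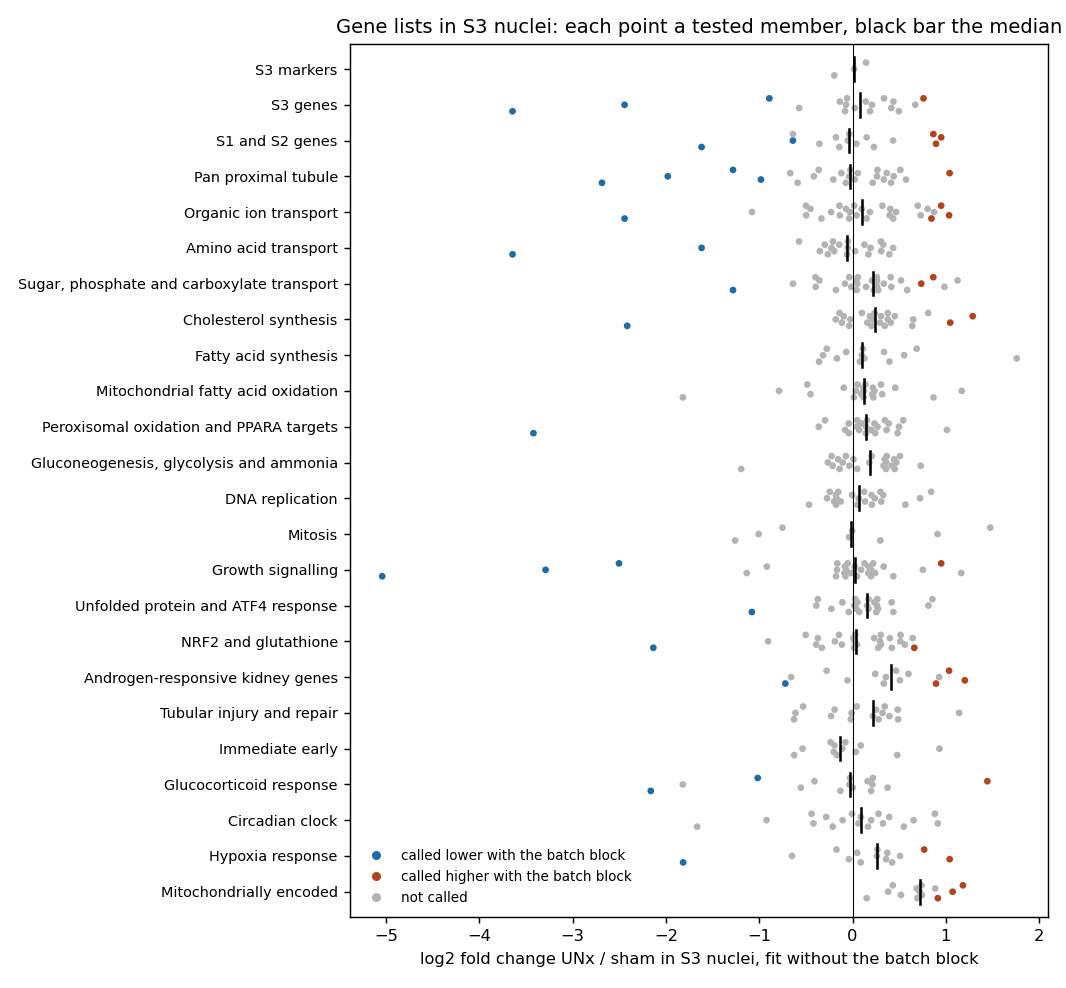
Log2 fold change of UNx over sham in S3 nuclei for every tested member of 24 gene lists, with the list median as a black bar. Points are blue where called lower and orange where called higher with the batch as a block; medians lie from −0.14 to 0.26 except for mitochondrially encoded genes (0.72) and androgen-responsive genes (0.41), and the lowest points are Cish, Slc7a12, Ehhadh and Irs2.

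The share of nuclei with a UMI was also compared. Each S3 nucleus was thinned to 5000 UMIs, which left out 12, 0, 4 and 10 shallower nuclei of sham mice 1 and 2 and UNx mice 1 and 2. Ehhadh was then seen in 90.0% and 87.2% of sham S3 nuclei and in 22.5% and 30.0% of UNx S3 nuclei (96.8%, 97.2%, 47.0% and 55.7% before thinning). In the endothelial class EC1, another cell type, its share was 18.8% and 34.3% in sham and 20.0% and 35.0% in UNx mice. These came from 32 to 80 thinned nuclei, with 3664 to 7752 UMIs in the median nucleus before thinning. The EC1 values come from its deeper nuclei, since 287 of 319, 12 of 79, 226 of 291 and 27 of 107 were under 5000 UMIs and left out, and before thinning the EC1 shares were 8.46%, 39.2%, 13.4% and 50.5%. The UNx S3 shares of Ehhadh were thus not clear of the thinned EC1 shares of the same mice. Whether EC1 lacks Ehhadh, Cish, Irs2 and Papss1 was not checked, so its shares are not shown to be background for them. Cish was seen in 28.0% and 26.5% of sham and in 0.402% and 1.79% of UNx S3 nuclei. In EC1 it had 3.12%, 10.4%, 4.62% and 3.75%, from only 1 of 32, 7 of 67, 3 of 65 and 3 of 80 thinned nuclei. The UNx S3 shares of Cish lay below the EC1 shares of the same mice. Irs2 was seen in 57.6% and 45.0% against 8.43% and 8.30%, with 0%, 7.46%, 1.54% and 8.75% in EC1, so in UNx mouse 2 it was not above EC1. A count of 0 in 32 nuclei allows a share of up to 9.38%. Papss1 went the other way, from 28.0% and 25.6% in sham to 48.0% and 45.5% in UNx S3 nuclei. But EC1 of UNx mouse 2 had 41.2%. Podocytes, also not checked for these genes, had 14, 52 and 53 thinned nuclei in sham mice 1 and 2 and UNx mouse 2. In that order Cish was seen in 7.14%, 21.2% and 3.77% of them and Irs2 in 21.4%, 23.1% and 5.66%. Ehhadh had 0%, 36.5% and 34.0% there, and Papss1 14.3%, 13.5% and 20.8%. UNx mouse 1 had only 2 podocyte nuclei. In sham mouse 2 the Cish share of podocytes was near the 26.5% of S3 nuclei.

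Whether the UNx effect in S3 differed from that in the other segments was tested as an interaction, with the mouse in the model. Segments of 1 mouse share their animal and library, so their effects are not independent of each other. For S3 minus S1, 0 of 15682 genes (0%) passed in edgeR, 278 (1.77%) had an unadjusted p under 0.05, limma voom called 0 and DESeq2 called 4. For S3 minus S2, 0 of 15481 genes (0%) passed in edgeR, 382 (2.47%) had an unadjusted p under 0.05, limma voom called 0 and DESeq2 called 1. Among the 4 genes of DESeq2 were Fmo2, Irs2 and Rdh16, each more negative in S3 than in S1, with adjusted p-values of 0.00681 to 0.0378, and the gene against S2 was Ccl28 (difference −2.04, adjusted p 0.0476). No difference between segments is therefore called here in the main test, and the values below are given for their size.

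Fmo2, a flavin-containing monooxygenase, had 374 and 256 CPM in S3 nuclei of sham mice and 90.5 and 71.3 CPM in those of UNx mice. The log2 fold change was −1.96 in S3 (SE 0.294), −0.75 in S2 (SE 0.340) and −0.47 in S1 (SE 0.393), and S3 differed from S1 by −1.50 (SE 0.188, unadjusted p 0.000728, adjusted p 1). Ehhadh had −3.42 in S3, −2.50 in S2 and −1.26 in S1, and Irs2 −3.29, −2.81 and −1.30. The retinol dehydrogenase Rdh16 had 299.5 and 303 CPM against 201 and 71.9 CPM in S3, and the chloride channel protein Clic5 57.1 and 69.0 CPM against 27.1 and 41.9 CPM. Their log2 fold changes were −1.14 and −0.87 in S3, beside 0.36 and 0.52 in S1, where neither was called. Cish and Socs2 had log2 fold changes of −5.27 and −2.90 in S2 and −3.85 and −2.24 in S1, beside −5.04 and −2.50 in S3. Keg1 had −2.89 in S2 and −2.54 in S1, beside −2.69 in S3. These 3 genes were thus lower in all 3 segments.

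A gene with the opposite kind of difference was Chsy1. Chsy1, a chondroitin synthase, had 44.0 and 41.3 CPM in sham and 45.1 and 36.2 CPM in UNx S3 nuclei, with log2 fold changes of −0.07 in S3, −0.91 in S2 and −1.34 in S1 (difference from S1 1.29, SE 0.190, unadjusted p 0.00146). Its groups overlapped in S3 nuclei, while it was called lower in S1 (adjusted p 0.00196) and in S2 (adjusted p 0.0219). With the block, 245 genes were called in S1 (1.64% of 14934) and 436 in S2 (3.05% of 14293), and the tests of single segments do not compare them.

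**Figure D5:**
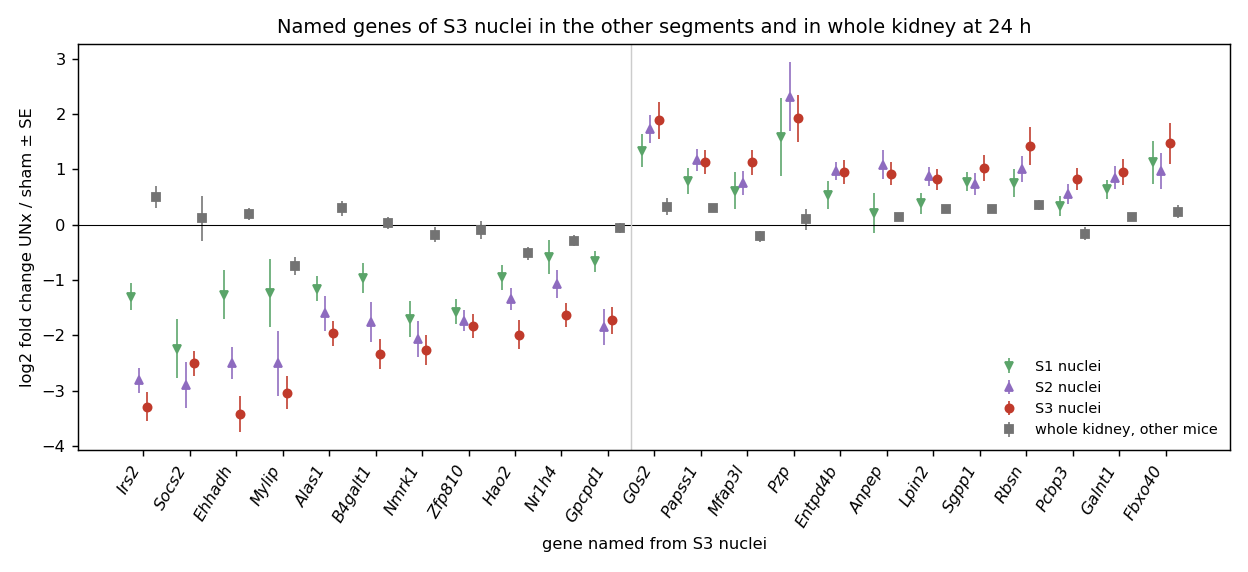
Log2 fold change of UNx over sham, with its SE, for 23 genes named from S3 nuclei, in nuclei of S1, S2 and S3 and in whole kidney of other mice at 24 h (no bulk value for Entpd4b). Irs2, Ehhadh and Hao2 lie lowest in S3, Socs2 lowest in S2, and bulk values lie between −0.74 and 0.50.

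Beyond single genes, calls in S3 nuclei and in bulk were compared in direction. Of the 120 genes called higher in S3 nuclei with the block 105 were tested in bulk, and there 25 were called higher and 4 lower. Of the 233 called lower 174 were tested in bulk, and 36 were called lower and 18 higher. Over all genes tested in bulk 14.2% were called higher and 13.1% lower. Of the 12245 genes tested both in S3 nuclei and in bulk, 1857 were called higher and 1723 lower in bulk. The bulk calls among the genes higher in S3 were thus 23.8% higher and 3.81% lower, and those among the genes lower in S3 were 20.7% lower and 10.3% higher. These genes were chosen by their values in S3 nuclei, and the shares were not tested.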

How the data were processed

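The authors deposited estimated UMI counts per nucleus, not normalized, and, for bulk RNA, estimated counts per gene. Per the submitters' processing notes, alevin, Seurat and mm10 were used for nuclei and FastQC 0.11.8, Salmon 1.5.0, R 4.10 and GRCm39 for bulk. Of the nucleus values above 0, 13.9% were not whole. The lowest UMI total was 1755. Cell filters and doublet removal were not given in the sources used here. A doublet caller was not applied. Classes are the authors' deposited annotation.

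Counts were summed per mouse, the replicate, rounded and tested two-sided with edgeR 4.0.16 (quasi-likelihood, filterByExpr, TMM) in R 4.3.3. DESeq2 1.42.0 and limma 3.58.1 were alternatives. Each SE is the log2 fold change over the root of its F statistic. The labels tie replicate numbers to batches, so the numbers pair the mice (deviations of same-numbered mice from their group means correlated at r = 0.864 over genes). Gene IDs and coordinates are from GENCODE on GRCm38.

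Named genes were the 12 with the lowest p in each direction (mean log2 CPM at least 5, groups not overlapping, no mitochondrial or predicted genes), the class markers, 3 members with the lowest p per list, and 3 per direction of each difference between segments. Genes outside this rule were named for their role, or where stated, after their values were seen. Some genes that the rule or the lists hold are not reported here. The nuclei, lists and markers were chosen with earlier results of these data known. The edgeR tests of S3, of S3 minus S1 and of bulk, without the replicate block, were also run on simulated data without a batch effect. The fit with the block, which gave the calls, was not checked in this way.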

Additional observations from a re-analysis of the deposited data

Results flagged for a closer look

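Among 52 bulk groups of 6 libraries examined for the genes named from S3 nuclei, 3 had a library far from the others, and chance alone sets about 1 in 20 groups apart in this way. For Irs2, 1 sham library had 35.1 CPM while the other 5 had 13.8 to 20.6 CPM. For Gpcpd1, 1 sham library had 19.4 CPM while the others had 14.0 to 16.0 CPM. For Fbxo40, 1 sham library had 46.7 CPM while the others had 31.4 to 36.9 CPM. The 3 libraries were different mice, and the values of S3 nuclei come from other animals.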

How the results depend on the processing

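Without the block 0 genes were called in S3 nuclei with DESeq2 size factors, limma voom, no filter on low counts, no mitochondrially encoded genes, without the 5% of nuclei with the most UMIs, and with each mouse left out, but 25 with the DESeq2 Wald test. The replicate number as a block gave 353. In combination with the block, added after the data were seen, the count was 211 with DESeq2, 248 with its size factors, 340 with voom, 875 with no filter, 313 without mitochondrial genes and 204 without the deepest nuclei. The 23 genes plotted by mouse kept their direction in the 17 settings run for each, and with the block 22 passed in 7 of 7 settings and Anpep in 5. The sign of the markers depended on single mice, with ranges over mice left out of −0.83 to 0.33 for Slc7a13, −0.31 to 0.30 for Slc22a30 and −0.15 to 0.47 for Slc5a10. Slc7a13 was at 0.33 without sham replicate 1 and 0.26 without UNx replicate 2. Slc22a30 was at −0.15 without sham replicate 2 and −0.31 without UNx replicate 1. Slc5a10 was at −0.08 without sham replicate 2 and −0.15 without UNx replicate 2. For the differences between segments DESeq2 called 4 and 1 genes where edgeR called 0. Bulk counts stayed within 3102 to 4137. The S3 difference in share was 8.71 points of proximal tubule nuclei, and 1.05 to 4.85 points of all nuclei with a mouse left out. With a mouse left out and the block no residual degrees of freedom remain. The planned fits on the finer class alone were not run, since UNx mouse 1 had 0 and UNx mouse 2 had 3 such nuclei. With 2 mice per group and 3977202 UMIs in the shallowest sum, many scarce transcripts, among them 16 of 24 mitosis genes, had too few counts to be tested.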
